A study of Mus musculus with 40 samples.

Results

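Muscarinic receptors and cholinergic neuron genes were described in 5 brain regions of mice with threonine (Thr) or alanine (Ala) at residue 92 of type 2 deiodinase, which turns thyroxine into active T3 inside brain cells and is the product of the Dio2 gene. The genes were the 5 muscarinic receptor genes Chrm1, Chrm2, Chrm3, Chrm4 and Chrm5, and Chat, Slc5a7, Slc18a3 and Ache, which make, recycle, store and degrade acetylcholine. They were chosen by gene symbol, with the row of highest mean over the arrays for each gene, and were 9 of 19505 genes with a symbol on the array. All 9 passed the filter on dim values that left 14978 genes for testing.

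The mice were labelled Ala92D2HY or Thr92D2HY, background strain C56BL/6, aged 8 to 10 weeks, and all were kept at the same room temperature, on chow and with no treatment named. Amygdala, cerebellum, hippocampus, prefrontal cortex and striatum were each measured on 4 Ala and 4 Thr arrays, 40 arrays in 10 groups. The labels name no animal, sex or batch and do not say how the alleles were made or whether arrays of different regions share a mouse. What the p-values measure is thus the spread among arrays alone, part of which may be technical, and precision is limited by how few arrays a group has.

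Acetylcholine is made from choline and acetyl-CoA by choline acetyltransferase (Chat), loaded into vesicles by the vesicular transporter (Slc18a3), split in the synaptic cleft by acetylcholinesterase (Ache), and its choline is taken back by the high-affinity choline transporter (Slc5a7). Muscarinic receptors are G protein-coupled receptors: those of Chrm1, Chrm3 and Chrm5 act through Gq and phospholipase C, and those of Chrm2 and Chrm4 through Gi and Go, which inhibit adenylyl cyclase. The striatum has its own cholinergic interneurons, whereas the cortex, hippocampus and amygdala receive cholinergic axons from the basal forebrain, so most of their cholinergic cell bodies lie outside the dissected tissue.

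Chat and Slc18a3 form 1 locus: the Slc18a3 gene (chromosome 14, 32462437 to 32464850) lies inside the Chat gene (32408203 to 32465909) on the same strand, and their annotated starts are 1059 bases apart in GRCm38.p6. The 250 bases before the start of each of the 3 genes of acetylcholine supply are shown because these genes were the ones that stood out together in striatum. The sequences are RefSeq's for GRCm38.p6, 5′ to 3′ on the gene's own strand, all from the minus strand, at chr14:32465910-32466159 for Chat, chr14:32464851-32465100 for Slc18a3 and chr17:54299035-54299284 for Slc5a7. Capitals mark matches, on either strand, to the homeodomain core TAATTA, the cyclic AMP response element TGACGTCA, the E-box CACGTG or the GC box GGGCGG.
Chat: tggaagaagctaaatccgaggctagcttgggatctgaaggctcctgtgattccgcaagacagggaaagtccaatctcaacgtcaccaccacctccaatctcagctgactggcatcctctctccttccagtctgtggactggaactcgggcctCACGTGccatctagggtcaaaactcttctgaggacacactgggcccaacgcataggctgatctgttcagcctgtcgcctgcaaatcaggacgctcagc
Slc18a3: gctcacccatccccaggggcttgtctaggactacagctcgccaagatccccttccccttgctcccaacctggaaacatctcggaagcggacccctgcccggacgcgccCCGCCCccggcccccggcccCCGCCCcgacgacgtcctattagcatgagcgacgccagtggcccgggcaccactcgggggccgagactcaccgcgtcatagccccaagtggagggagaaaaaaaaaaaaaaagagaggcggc
Slc5a7: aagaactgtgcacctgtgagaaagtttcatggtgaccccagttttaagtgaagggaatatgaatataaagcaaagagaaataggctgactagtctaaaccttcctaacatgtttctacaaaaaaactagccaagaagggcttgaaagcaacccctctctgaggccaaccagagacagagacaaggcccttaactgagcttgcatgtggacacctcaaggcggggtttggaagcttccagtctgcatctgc
The Chat window held 1 CACGTG, starting 98 bases before the start. The Slc18a3 window held GGGCGG at 2 places, both on the opposite strand, and the Slc5a7 window held none of the 4 motifs. Among the windows of the same length of all 32851 promoters in the table, 6.02% held the E-box, 32.7% the GC box, 4.84% the homeodomain core and 1.55% the cyclic AMP response element. These matches describe letters only and do not show binding. The windows of Chat, Slc18a3 and Slc5a7 had 54.8%, 66% and 45.6% G and C, against a median of 52.4% over all windows. Promoters of 8 of the 9 genes were in the table. Chrm1 was not matched.

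Values are the deposited log2 signals. They reached 19.93 over all rows, above the 16 that a 16-bit scanner allows, for which the sources used here give no reason, and 1 log2 unit need not be a doubling of RNA. Levels are compared between regions and genotypes for 1 gene, never between genes. The median of the negative control rows of an array lay between 5.73 and 6.35, and a mean at or below 6.35 is called near background. A difference from a level near background is one of signals, not of measured RNA. Where such a difference between a region and the others is given with its SE for 1 of the 9 genes, and has a side above background, a bound is added. The bound sets means below 6.35 to that level and is given as "at least". No bound is given for other genes. The regions carried their own markers: 12 of 12 striatum, 10 of 10 cerebellum, 9 of 10 hippocampus, 8 of 11 neocortex (in prefrontal cortex) and 7 of 11 amygdala markers were higher there than in the other regions, with 1 amygdala marker lower. Single arrays stood apart by markers of other tissue, and 4 of them that were extreme for several of the 9 genes are described beside some of those genes: Ala amygdala replicate 1, Thr hippocampus replicate 23, Ala cerebellum replicate 12 and Ala prefrontal cortex replicate 27. Others stood apart too, chiefly by choroid plexus markers, with scores up to 2.73 above the region's mean (Ala striatum replicate 36), and by liver and blood markers, up to 1.76 (Ala amygdala replicate 2). In bulk tissue, fewer cells of a type and less RNA per cell cannot be told apart.

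A region was compared with the mean of the other 4 regions, and the call in limma asked for a log2 difference of at least 1 with a p, adjusted by Benjamini-Hochberg, under 0.05. In striatum 5 of the 9 genes were higher and 0 lower, where 5.71% and 5.20% of all genes tested were called. Of these 5, Chat and Slc18a3 passed the filter on dim genes through striatum arrays alone, so their calls had to follow and the count cannot be read against that share. The cerebellum had 0 higher and 5 lower (8.69% and 10.1% of all genes), and the prefrontal cortex had 3 higher and 3 lower (3.28% and 1.94%). The hippocampus had 2 higher and 1 lower (3.57% and 2.34%), and the amygdala 2 higher and 0 lower (3.40% and 2.44%). Each of these counts includes Chrm1, which was called higher in all 4 forebrain regions because the cerebellum, where it was low, is part of each mean of the others. In the same way the lower calls of Slc5a7 in cerebellum, hippocampus and prefrontal cortex, and of Chat in prefrontal cortex, come from the striatum in the mean: no pair among the other 4 regions was called for either gene. The prefrontal count of 3 lower holds Chat, so it too cannot be read against its share. With no minimum difference, 6 genes were called in amygdala, 8 in cerebellum, 8 in hippocampus, 9 in prefrontal cortex and 7 in striatum, against 32.6%, 57.5%, 27.9%, 25.8% and 44.0% of all genes. Chat and Slc18a3 are in each of these 5 counts, so these too cannot be read against the shares.

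**Figure D1:**
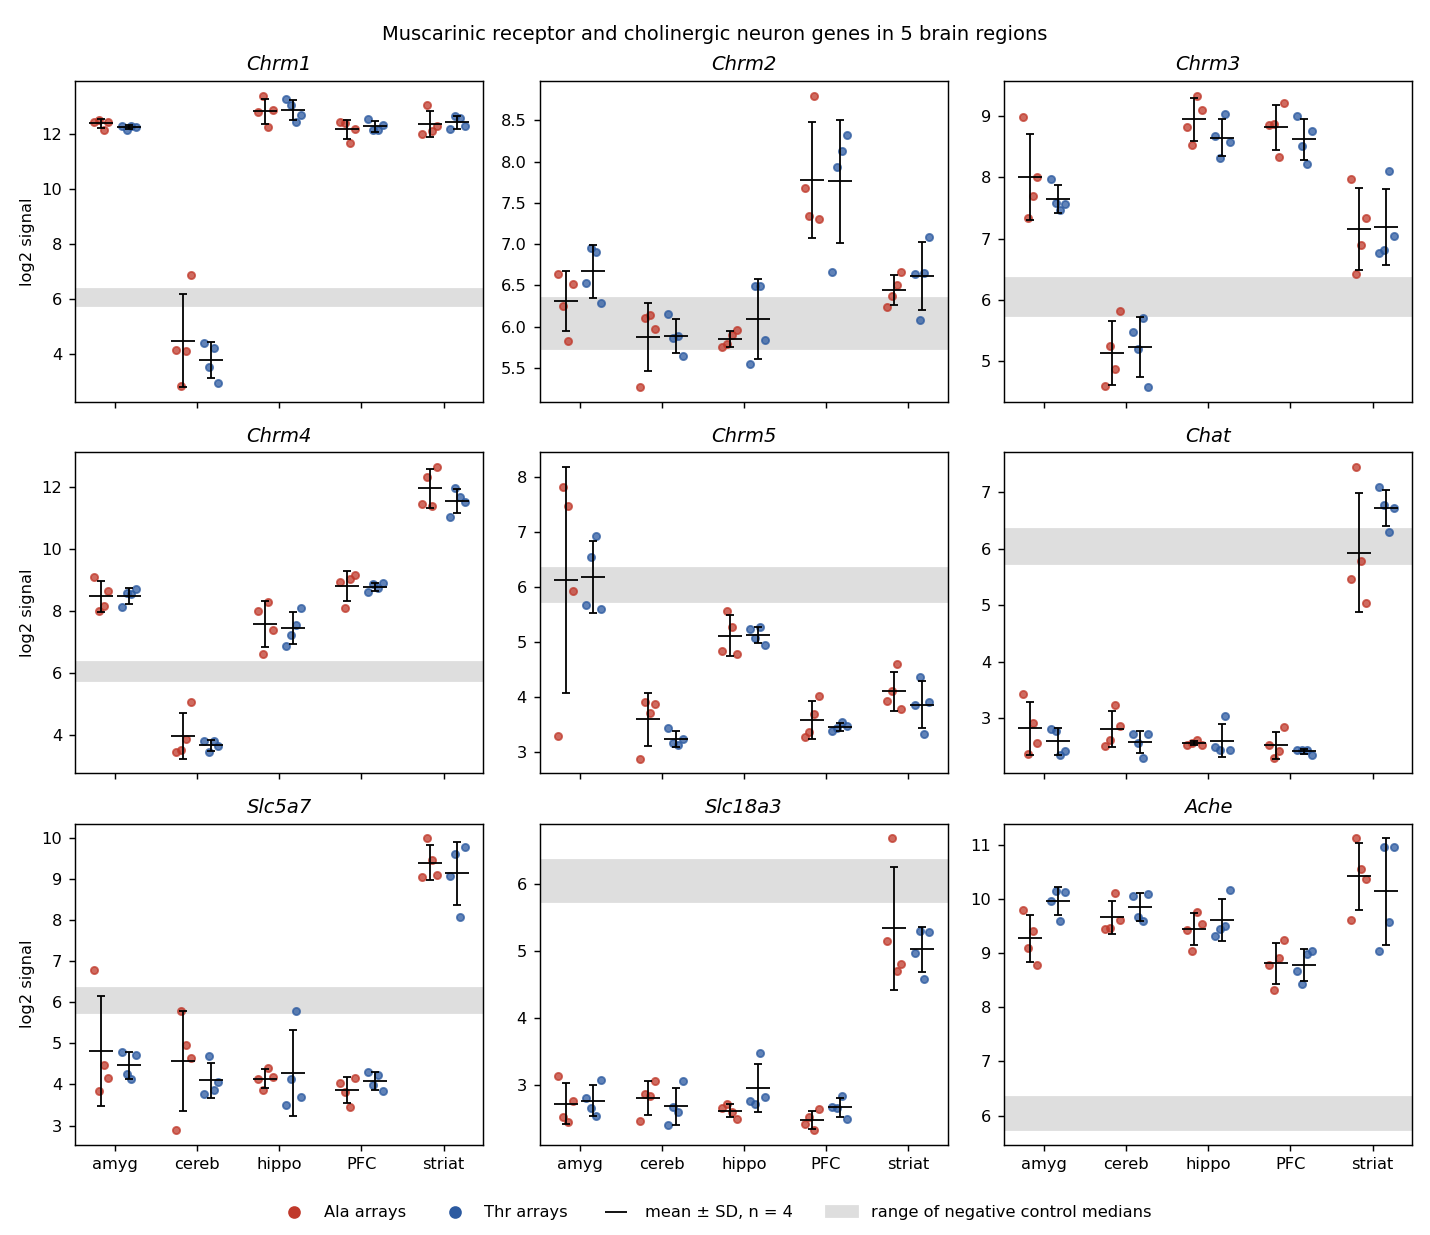
Log2 signal (vertical axes, each gene with its own range) of the 9 genes in amygdala (amyg), cerebellum (cereb), hippocampus (hippo), prefrontal cortex (PFC) and striatum (striat), with 1 point per array, Ala in red and Thr in blue, bars for the mean ± SD of 4 arrays and a grey band for the range of the arrays' negative control medians, 5.73 to 6.35. Chat, Slc5a7 and Slc18a3 are higher in all 8 striatum arrays than in any other array, though the striatal means of Chat and Slc18a3 are near background. Chrm4 is highest in striatum, and Chrm1 is low in cerebellum only.

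The genes of acetylcholine supply were higher in striatum than elsewhere, and no striatum array overlapped any array of another region in Chat, Slc5a7 or Slc18a3. Slc5a7, the choline transporter that limits acetylcholine synthesis, read 9.07, 10.00, 9.46 and 9.09 in the Ala striatum and 9.07, 9.61, 8.07 and 9.79 in the Thr striatum. Its means elsewhere were 4.64 ± 0.92 in amygdala, 4.34 ± 0.88 in cerebellum, 4.21 ± 0.71 in hippocampus and 3.98 ± 0.27 in prefrontal cortex (SD, n = 8), against 9.27 ± 0.60 in striatum. The striatum signal exceeded the mean of the other regions by 4.98 ± 0.27 (SE, adjusted p = 3.69e-19), and by at least 2.92 with the other 4 regions, all near background, set to that level. Of these 3 genes, Slc5a7 alone had both striatal group means above the background range by more than the spread of its arrays.

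Chat, the defining enzyme of cholinergic neurons, read 5.46, 7.45, 5.78 and 5.03 in Ala striatum and 7.09, 6.78, 6.30 and 6.71 in Thr striatum. All 32 other arrays lay between 2.29 and 3.43. The striatal mean of 6.32 ± 0.84 stood 3.71 ± 0.16 (SE) above the others (adjusted p = 3.04e-22). The other 4 regions, at 2.47 to 2.70, were not told apart, and the differences between neighbours in that order were 0.01 to 0.12 with 95% intervals reaching from -0.40 to 0.53.

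Slc18a3, whose protein fills synaptic vesicles with acetylcholine, read 5.15, 6.68, 4.71 and 4.81 in Ala striatum and 4.97, 5.30, 4.58 and 5.28 in Thr striatum. The other regions had means of 2.58 to 2.79, and their highest single array was 3.49. The striatal mean was 5.18 ± 0.66, higher by 2.47 ± 0.15 (SE, adjusted p = 8.45e-18). All 10 group means of Slc18a3 and 9 of 10 of Chat, the Ala striatum included, were near background. With every region mean of both genes at or below 6.35, no bound is given for them. They passed the filter on dim genes through 8 and 7 striatum arrays and no other array.

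Ala striatum replicate 34 was the highest of the 8 striatum arrays for 5 of the 9 genes, namely Chrm1, Chat, Slc5a7, Slc18a3 and Ache. Its score for 7 tested markers of septum and basal forebrain was 0.39 above the mean of the striatum arrays, the highest of the 8, and its striatum marker score was 0.41 above. The part of either in these levels was not tested. After group means were taken off, the 40 arrays had a Pearson r of 0.78 between Chat and Slc18a3, 0.59 between Slc5a7 and Slc18a3 and 0.54 between Chat and Slc5a7. These describe arrays that share the region, dissection and scale, and for Chat and Slc18a3 they also share the locus. The SD of Chat was 1.06 in Ala striatum and at most 0.47 in any other group. That of Slc18a3 was 0.92 in Ala striatum and at most 0.36 elsewhere. The r of this pair thus leans on the Ala striatum arrays, which include replicate 34.

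Within hippocampus and amygdala, the highest readings of these genes came from an array that carried markers of another tissue. In hippocampus, Thr replicate 23 had the highest Slc5a7 (5.80 against 3.49 to 4.39), Slc18a3 (3.49 against 2.50 to 2.83) and Chat (3.04 against 2.43 to 2.62). The medial habenula, which lies next to the hippocampus, has its own cholinergic neurons, and the mean of 9 tested habenula markers of 10 was 2.53 above the mean of the hippocampus arrays in that array. The level of this list was 6.57 to 9.57 in Thr hippocampus and 6.56 to 6.74 in Ala hippocampus.

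In amygdala, Ala replicate 1 had the highest Slc5a7 (6.78 against 3.84 to 4.78), Chat (3.43) and Slc18a3 (3.15), with a score for 12 tested striatum markers of 14 that was 2.21 above the mean of the amygdala arrays. Its score for cerebellum markers was 1.63 above that mean. The level of the striatum list was 8.68 to 11.57 in Ala amygdala and 8.88 to 9.75 in Thr amygdala, against 14.89 to 15.69 in Ala striatum. The part of other tissue in these readings was not tested. In cerebellum Slc5a7 ran from 2.89 to 5.80, both in Ala arrays, and the highest Chat there was 3.24, in Ala replicate 11. The array at 5.80, Ala cerebellum replicate 10, had a score of 0.06 for habenula markers and -1.86 for choroid plexus markers. Calls of Slc5a7 and Chat as lower than the mean of the others, which holds the striatum, shifted with single arrays: Slc5a7 in cerebellum lost its call without Ala replicate 9 (-0.91 in place of -1.19), Slc5a7 in amygdala gained one without Ala replicate 1 (-1.14 in place of -0.81), and Chat in hippocampus gained one without Thr replicate 23 (-1.04 in place of -0.96).

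**Figure D2:**
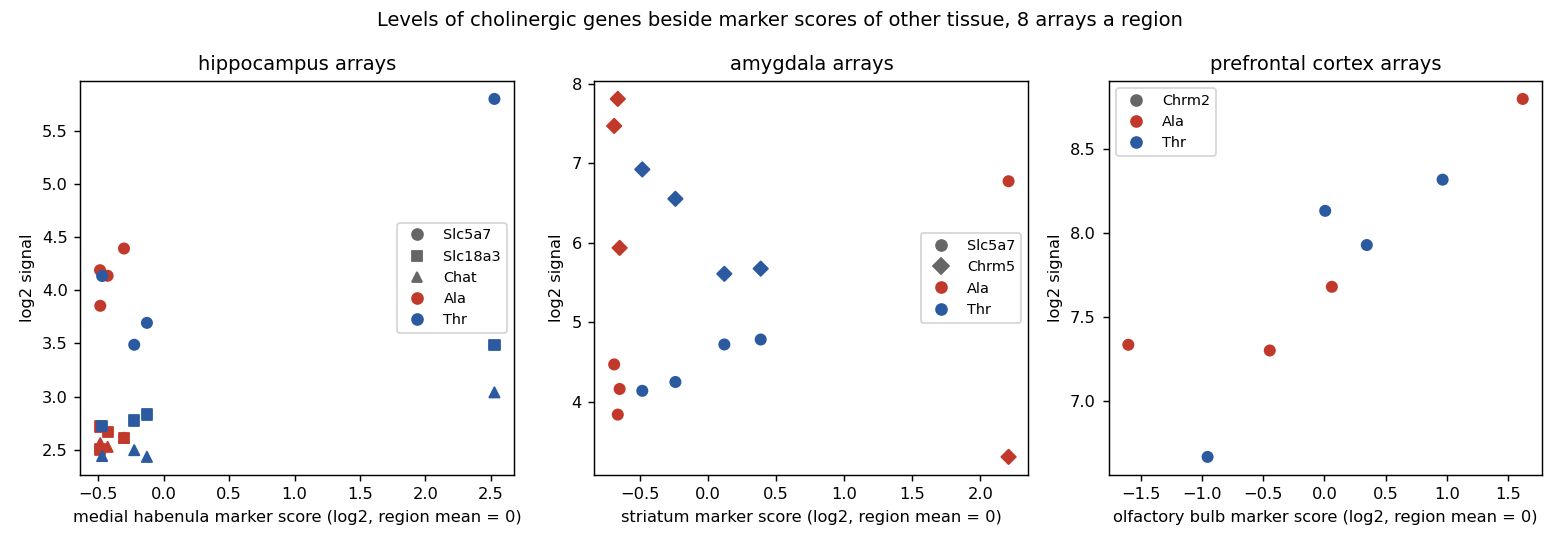
Log2 signal of Slc5a7, Slc18a3 and Chat in the hippocampus arrays, of Slc5a7 and Chrm5 in the amygdala arrays, and of Chrm2 in the prefrontal cortex arrays (vertical axes), against the array's score for markers of another tissue (horizontal axes, log2, the region's mean set to 0). Colours are genotypes and shapes are genes, and Thr hippocampus replicate 23 and Ala amygdala replicate 1 lie alone at scores of 2.53 and 2.21.

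Ache was present in every region, with its highest level in striatum and its lowest in prefrontal cortex. It read 9.61, 11.12, 10.56 and 10.37 in Ala striatum and 9.05, 10.97, 9.58 and 10.97 in Thr striatum, and these arrays overlapped those of every other region. The region means were 10.28 ± 0.77 in striatum, 9.76 ± 0.29 in cerebellum, 9.62 ± 0.50 in amygdala, 9.53 ± 0.33 in hippocampus and 8.80 ± 0.31 in prefrontal cortex (SD, n = 8). Striatum was higher than cerebellum (0.52, adjusted p = 0.0424) and hippocampus was higher than prefrontal cortex (0.73, adjusted p = 0.0131), while cerebellum, amygdala and hippocampus were not told apart.

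Against the mean of the other regions, Ache differed by 0.85 ± 0.17 (SE) in striatum and -0.997 ± 0.17 in prefrontal cortex, both just under the size asked for a call. The striatal value passed it without Thr striatum replicate 37 (1.03), and the cortical value passed it in 18 of 40 fits that left out 1 array. The row used for Ache has an identifier that marks it as unmapped (TSUnmapped00000036.mm.2). A second row (TC0500001620.mm.2), correlated with it at r = 0.77 over the arrays, also had its lowest level in prefrontal cortex (6.90 ± 0.35), but its striatum (7.76 ± 0.45) did not stand above its cerebellum (7.77 ± 0.25).

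The 3 receptor genes that act through Gq differed in where they were high. Chrm1 was high in all forebrain regions and low in cerebellum, Chrm3 was highest in hippocampus and prefrontal cortex, and Chrm5 was highest in amygdala. Chrm1, the main muscarinic receptor gene of forebrain projection neurons, had means of 12.86 ± 0.39 in hippocampus, 12.41 ± 0.35 in striatum, 12.33 ± 0.13 in amygdala and 12.24 ± 0.27 in prefrontal cortex (SD, n = 8). The cerebellum arrays read 4.16, 2.82, 4.10 and 6.87 in Ala and 4.38, 3.53, 4.21 and 2.96 in Thr. All cerebellum arrays lay below all others, by 8.33 ± 0.23 (SE) for the mean signals (adjusted p = 1.73e-29). The cerebellar mean, 4.13, is near background, and with it set to that level the difference was -6.11 or lower. No pair of forebrain regions was called, and the widest gap between neighbours in the order, hippocampus over striatum, was 0.45 with a 95% interval of -0.13 to 1.04.

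The high cerebellar reading of Chrm1, in Ala cerebellum replicate 12, came with the highest cerebellar Chrm3 (5.81) and Chrm4 (5.05), both below 6.35. That array's score for 11 tested neocortex markers of 12 was 1.14 above the mean of the cerebellum arrays. The next highest Chrm3, 5.69 in Thr replicate 15, came with a neocortex score of -0.48, the lowest in cerebellum. The list's level was 6.44 to 7.99 in Ala and 6.37 to 6.90 in Thr cerebellum, against 10.97 to 11.92 in Ala prefrontal cortex. Without Ala cerebellum replicate 12 the cerebellar difference of Chrm1 was -8.73. The part of forebrain tissue in these readings was not tested.

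Chrm3 followed the order hippocampus (8.80 ± 0.34), prefrontal cortex (8.72 ± 0.34), amygdala (7.83 ± 0.52), striatum (7.17 ± 0.60) and cerebellum (5.18 ± 0.47). The first 2 were not told apart (0.08, 95% interval -0.38 to 0.54), and each later step was called, at 0.89, 0.66 and 1.99. Hippocampus arrays ran from 8.31 to 9.33 and prefrontal arrays from 8.22 to 9.21, so those regions overlapped almost fully. Among amygdala arrays, Ala replicate 1 was highest at 8.98, and the next read 8.01. That array had high striatum and cerebellum marker scores, and the Chrm3 means of both regions were below the amygdala mean. The part of other tissue in this reading was not tested. The cerebellum arrays, at 4.57 to 5.81, lay below all others and near background. Against the mean of the other regions, Chrm3 was higher by 1.58 ± 0.18 (SE) in hippocampus (adjusted p = 1.96e-09) and by 1.48 ± 0.18 in prefrontal cortex (adjusted p = 1.26e-08), and fell by 2.95 ± 0.18 below it in cerebellum (adjusted p = 5.00e-18). With cerebellum set to the background level these become at least 1.28, at least 1.18, and -1.77 or lower.

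Chrm5, known best from midbrain dopamine neurons, was near background in all 10 groups. Its amygdala arrays read 3.30, 7.81, 7.47 and 5.94 in Ala and 5.68, 6.56, 6.93 and 5.61 in Thr. Of the amygdala arrays 7 lay above the highest hippocampus array (5.57), and the Ala replicate 1 lay among the lowest arrays of all regions. The region means were 6.16 ± 1.41 in amygdala, 5.13 ± 0.26 in hippocampus, 3.99 ± 0.38 in striatum, 3.53 ± 0.24 in prefrontal cortex and 3.43 ± 0.38 in cerebellum (SD, n = 8). The amygdala signal was higher than the others by 2.14 ± 0.26 (SE, adjusted p = 1.58e-08), and by 2.61 without Ala replicate 1, with no bound since all regions are near background. That array had the lowest amygdala marker score of the 8 (-0.63) beside its high striatum and cerebellum scores. Amygdala over hippocampus (1.03, adjusted p = 0.0267) and hippocampus over striatum (1.14, adjusted p = 0.00609) were called, and striatum, prefrontal cortex and cerebellum were not told apart, with neighbour differences of 0.46 and 0.11.

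Of the Gi-coupled receptors, Chrm4 was highest in striatum and Chrm2 in prefrontal cortex. Chrm4, a receptor of the medium spiny neurons of the direct pathway, read 11.43, 12.32, 11.39 and 12.63 in Ala striatum and 11.02, 11.97, 11.67 and 11.51 in Thr striatum. No other array reached this range, the next being a prefrontal array at 9.14. The means in the other regions were 8.78 ± 0.33 in prefrontal cortex, 8.47 ± 0.36 in amygdala, 7.50 ± 0.60 in hippocampus and 3.82 ± 0.52 in cerebellum (SD, n = 8). The highest amygdala array for Chrm4 was again Ala replicate 1, at 9.09. Striatum was 4.60 ± 0.18 above the others (SE, adjusted p = 2.24e-23) and the cerebellar signal, near background, differed by -5.31 ± 0.18 (adjusted p = 3.80e-26). With cerebellum set to the background level, striatum was at least 3.97 above the others and cerebellum was at -2.77 or lower. All neighbours in the order were called apart from prefrontal cortex and amygdala (0.31, 95% interval -0.16 to 0.78). The prefrontal difference from the other regions, 0.90, passed the size threshold only without Ala prefrontal replicate 26 (1.01).

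Chrm2, the autoreceptor of cholinergic terminals in cortex and hippocampus, read 7.68, 7.34, 8.80 and 7.30 in Ala prefrontal cortex and 6.67, 7.93, 8.13 and 8.32 in Thr prefrontal cortex. Only the lowest of these, 6.67, overlapped other regions. The region means were 7.77 ± 0.67 there, 6.53 ± 0.31 in striatum, 6.49 ± 0.37 in amygdala, 5.97 ± 0.35 in hippocampus and 5.88 ± 0.30 in cerebellum (SD, n = 8), the latter pair near background. Prefrontal cortex was higher than the others by 1.55 ± 0.16 (SE, adjusted p = 5.73e-10), at least 1.34 with hippocampus and cerebellum set to the background level, and no other neighbours in the order were called. The gap of amygdala over hippocampus was 0.52 with a 95% interval of 0.10 to 0.94 and an adjusted p of 0.0895.

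Prefrontal Chrm2 moved with markers of the olfactory bulb, which lies in front of the prefrontal cortex. The mean of 8 tested bulb markers of 9 was 8.26 to 11.49 in Ala and 8.91 to 10.83 in Thr prefrontal arrays, against 5.66 to 6.66 in amygdala, hippocampus and striatum and 7.37 to 7.87 in cerebellum. The array with the highest bulb score, Ala replicate 27 at 1.62 above the region's mean, also had the highest Chrm2 (8.80) and the lowest prefrontal Chrm1 (11.68). Without it the prefrontal difference of Chrm2 was 1.38, and leaving out each other array gave 1.46 to 1.74. The part of bulb tissue in the prefrontal level was not tested.

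Between pairs of regions, 55 of the 90 comparisons over the 9 genes and 10 pairs were called at an adjusted p under 0.05. Striatum separated from cerebellum in 8 genes, from hippocampus in 8, from amygdala in 7 and from prefrontal cortex in 7, where 54.0%, 34.8%, 37.4% and 33.9% of all genes tested were called. Chat and Slc18a3 are in each of these 4 counts, and so in the 55. Both passed the filter on dim genes through striatum arrays alone, so these counts cannot be read against those shares. Cerebellum differed from amygdala in 5 genes, from prefrontal cortex in 5 and from hippocampus in 4 (53.2%, 50.1% and 50.0% of all genes). Amygdala and prefrontal cortex differed in 4 genes (15.5%), hippocampus and prefrontal cortex in 4 (19.5%), and amygdala and hippocampus in 3 (16.2%). By gene, Chrm3 and Chrm4 were called in 9 of 10 pairs each, whereas Chrm1, Chat, Slc5a7 and Slc18a3 were called in 4 each, those with the 1 region that stood apart.

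The comparison of genotypes asked whether the Ala allele of the deiodinase went with other levels of these genes. None of the 9 genes passed the test between Ala and Thr in any region, in the mean of the 5 regions, or for a difference that varied by region. Of all genes tested, 0.120% were called in amygdala, 0.0801% in striatum, 0% each in cerebellum, hippocampus and prefrontal cortex, 0.0200% in the mean of the regions and 0.0401% for a difference that varied by region. At an unadjusted p under 0.05 in limma, 1 of the 9 genes stood in amygdala (Ache) and 1 in striatum (Chat), with 0 in the other regions and in the mean, against 798, 920, 291, 471, 349 and 804 of all genes in amygdala, striatum, cerebellum, hippocampus, prefrontal cortex and the mean. Of the 45 differences, 23 were above 0, and their 95% intervals ran from -1.37 to 1.54, so that changes of about 1 log2 unit in a single region cannot be told from none for several genes.

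**Figure D3:**
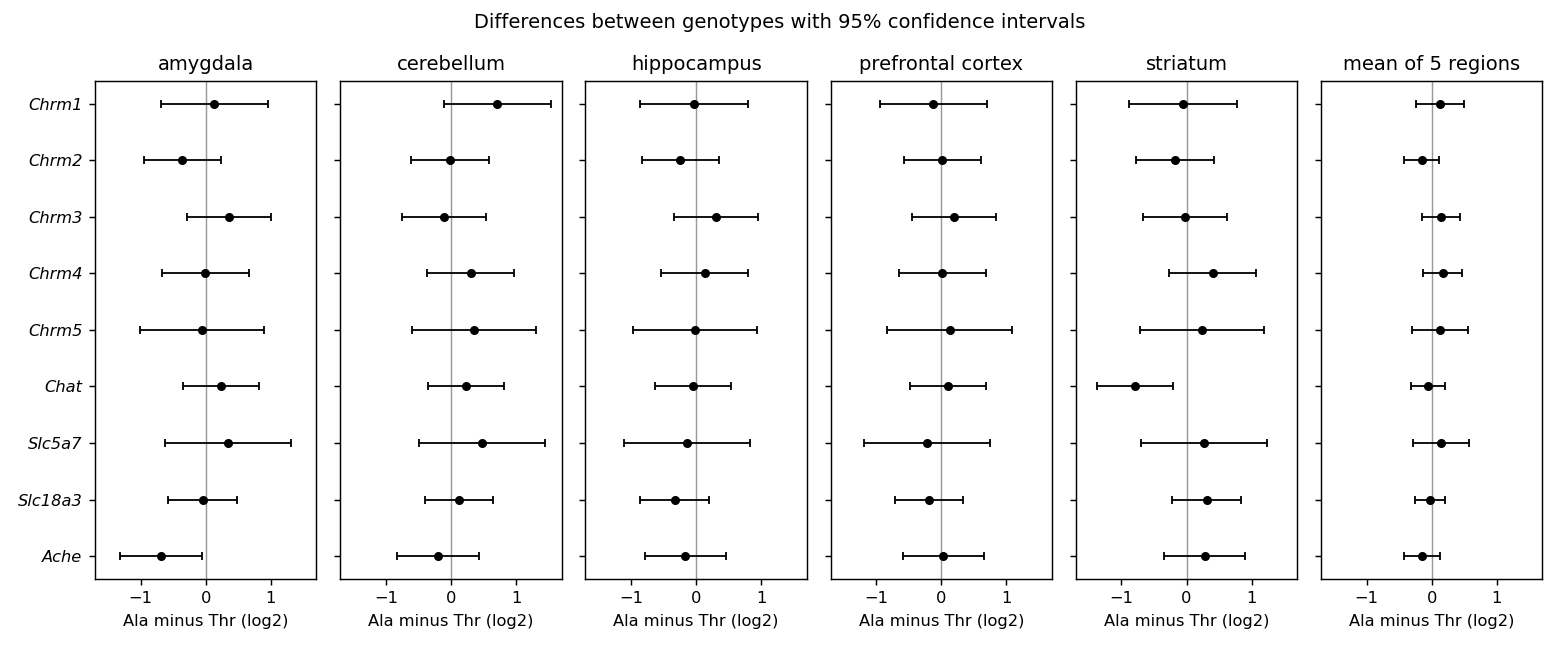
Difference between Ala and Thr arrays (horizontal axes, log2, Ala minus Thr) for the 9 genes in each of the 5 regions and in the mean of the 5 regions, with points for the difference of group means (4 arrays each) and bars for the 95% interval. The intervals of Chat in striatum (-1.37 to -0.21) and Ache in amygdala (-1.31 to -0.06) leave out 0 before adjustment, and no difference passed the adjusted test.

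Chat in striatum had the lowest adjusted p of the 45. Its arrays read 5.46, 7.45, 5.78 and 5.03 in Ala and 7.09, 6.78, 6.30 and 6.71 in Thr, so that 3 Ala arrays lay below all Thr arrays and 1 above all of them. The means were 5.93 and 6.72, a difference of -0.79 ± 0.29 (SE, adjusted p = 0.704). The Ala mean is near background, so this is a difference of signals, not of measured RNA. The same holds for the values that follow with 1 array left out. The array above the rest was Ala replicate 34, and without it the difference was -1.30 and was called (adjusted p = 0.00341). Without Ala replicate 36 it was -0.49.

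For Slc18a3 the striatal difference was 0.31 ± 0.26 (adjusted p = 0.927), and -0.14 without Ala replicate 34. For Slc5a7 it was 0.26 ± 0.48 (adjusted p = 0.971). Markers of the choroid plexus, which lines the ventricle beside the striatum, separated the same arrays, and the mean of all 10 listed markers was 7.65 to 10.53 in Ala and 6.26 to 7.15 in Thr striatum. The lowest of the Ala arrays for this list was replicate 34, and the highest was replicate 36, which had the lowest Chat. The part of choroid plexus in the Chat values was not tested.

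Ache in amygdala read 9.80, 9.09, 9.41 and 8.79 in Ala and 9.96, 10.15, 9.59 and 10.14 in Thr. The groups overlapped in 1 array, and the means were 9.27 and 9.96, a difference of -0.69 ± 0.31 (SE, adjusted p = 0.883). The overlapping Ala array, at 9.80, was replicate 1, which had the high striatum marker score. Without it the difference was -0.86 and was not called. On the second row for Ache the difference was -0.22. Slc18a3 in hippocampus was the single case among 45 in which the Ala and Thr arrays did not overlap (2.50 to 2.72 against 2.73 to 3.49). The difference was -0.33 ± 0.26, and -0.15 without Thr replicate 23. Non-overlap was seen for 2.73% of all genes in hippocampus, 3.19% in amygdala, 2.66% in cerebellum, 1.66% in prefrontal cortex and 1.98% in striatum.

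Other differences turned on single arrays. Chrm1 in cerebellum was 0.72 ± 0.41 higher in Ala, and -0.08 without Ala replicate 12. Chrm5 in amygdala differed by -0.06, and by 0.88 without Ala replicate 1 (adjusted p = 0.552). Chrm3 in amygdala differed by 0.36, and by 0.04 without the same array. Slc5a7 differed by 0.34 in amygdala and -0.14 in hippocampus, and by -0.32 and 0.37 without Ala amygdala replicate 1 and Thr hippocampus replicate 23.

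Genes that work beside these 9 were followed in 5 lists, each described by its calls for a region against the others. A gene far higher in 1 region is thereby called lower in others: Plcb4, Rgs8 and Zic1, highest in cerebellum, and Rgs9, highest in striatum, are such genes. Some differences below are of signals with a side near background, and no bound is given. Region means were near background for Ly6h, Rgs2 and Rgs9 in cerebellum and Prima1 in amygdala. The same held for Tacr1 in cerebellum and hippocampus, and for Ecel1 in cerebellum, hippocampus and prefrontal cortex. Among nicotinic receptor subunits, the ion channels that acetylcholine also opens, 9 of 16 were tested. In cerebellum 1 was higher and 3 lower, with Chrna4 at -2.57 and Chrna7 at -2.08, while hippocampus and prefrontal cortex each had 2 higher and 0 lower. Chrna7 was 1.60 and Chrna5, near background in all 5 regions, 1.55 in hippocampus, and Chrna3, near background in the other 4 regions, was 1.29 and Chrna4 1.27 in prefrontal cortex. Amygdala and striatum had 0 calls among the 9 tested.

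Of the 17 genes of choline handling and cholinesterase partners, 15 were tested, and striatum had 1 higher and 0 lower. That gene was Prima1, which anchors acetylcholinesterase to the membrane, at 2.72 ± 0.13 above the other regions (SE, adjusted p = 2.19e-20). In amygdala 2 were higher and 3 lower, with Ly6h, a modulator of nicotinic receptors, at 2.77 and Lynx1, another, at -1.45. In cerebellum 3 were higher and 2 lower, led by Ly6h at -4.10 and the choline transporter-like gene Slc44a5 at -2.14. Hippocampus had 1 higher, Slc44a5 at 2.71, and prefrontal cortex had 0 calls.

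Downstream of the Gq-coupled receptors, 12 of 15 genes were tested, with 6 higher and 3 lower in striatum and 2 higher and 6 lower in cerebellum. The regulators of G protein signalling Rgs2 and Rgs4 were 4.26 and 4.13 higher in striatum. In cerebellum Rgs4 was at -6.50 and the phospholipase Plcb4 at 5.48. Plcb4 was -2.09 in hippocampus and -1.96 in amygdala, where the list had 3 higher and 1 lower, and 1 higher and 1 lower. Prefrontal cortex had 3 higher, with Rgs4 at 1.81 and the protein kinase C gene Prkca at 1.66.

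For the Gi-coupled receptors, 17 of 18 genes were tested, and striatum had 4 higher and 5 lower. Rgs9, which speeds the return of Gi to rest in medium spiny neurons, was 9.25 above the other regions, and the G protein subunit gene Gng7 6.36 above. Cerebellum had 3 higher and 3 lower, with Gng7 at -5.66 and Rgs8 at 5.50. Hippocampus had 3 higher and 4 lower, with the potassium channel gene Kcnj6 at 2.43 and Rgs9 at -2.31. Prefrontal cortex had 2 higher and 4 lower, led by Rgs8 at -3.00, and amygdala 0 higher and 2 lower, Rgs8 at -2.30 and Rgs9 at -1.24.

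Genes that mark or specify cholinergic neurons made the last list, with 8 of 14 tested. In striatum 5 were higher and 1 lower: the substance P receptor gene Tacr1 was at 4.05 and Ecel1 at 4.03. The transcription factor gene Zic1, known from cerebellar granule neurons, was at 7.98 in cerebellum, with a level of 17.96 against 8.96 to 11.52 elsewhere, and so at -3.27 in amygdala and -2.56 in hippocampus. Ecel1 was also higher in amygdala (3.13), and near background in hippocampus (-2.38) and prefrontal cortex (-2.57). No gene of the 5 lists was called between Ala and Thr, in any region or in the mean. The differences of smallest p were Zic1 in hippocampus (-2.71 ± 0.55, adjusted p = 0.250), Tacr1 in amygdala (-1.50, adjusted p = 0.256) and Ecel1 in amygdala (-1.69, adjusted p = 0.292). In hippocampus the level of 12 thalamus markers was 7.70 to 10.32 in Thr and 7.76 to 8.06 in Ala arrays. Zic1 is itself among these markers, so that level is not separate from the Zic1 difference. In amygdala the level of 8 tested hypothalamus markers of 10 was 5.45 to 5.97 in Thr and 4.89 to 5.56 in Ala arrays. These ranges overlap, and all of these list means lie below 6.35, near background. The part of other tissue in these differences was not tested.

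**Figure D4:**
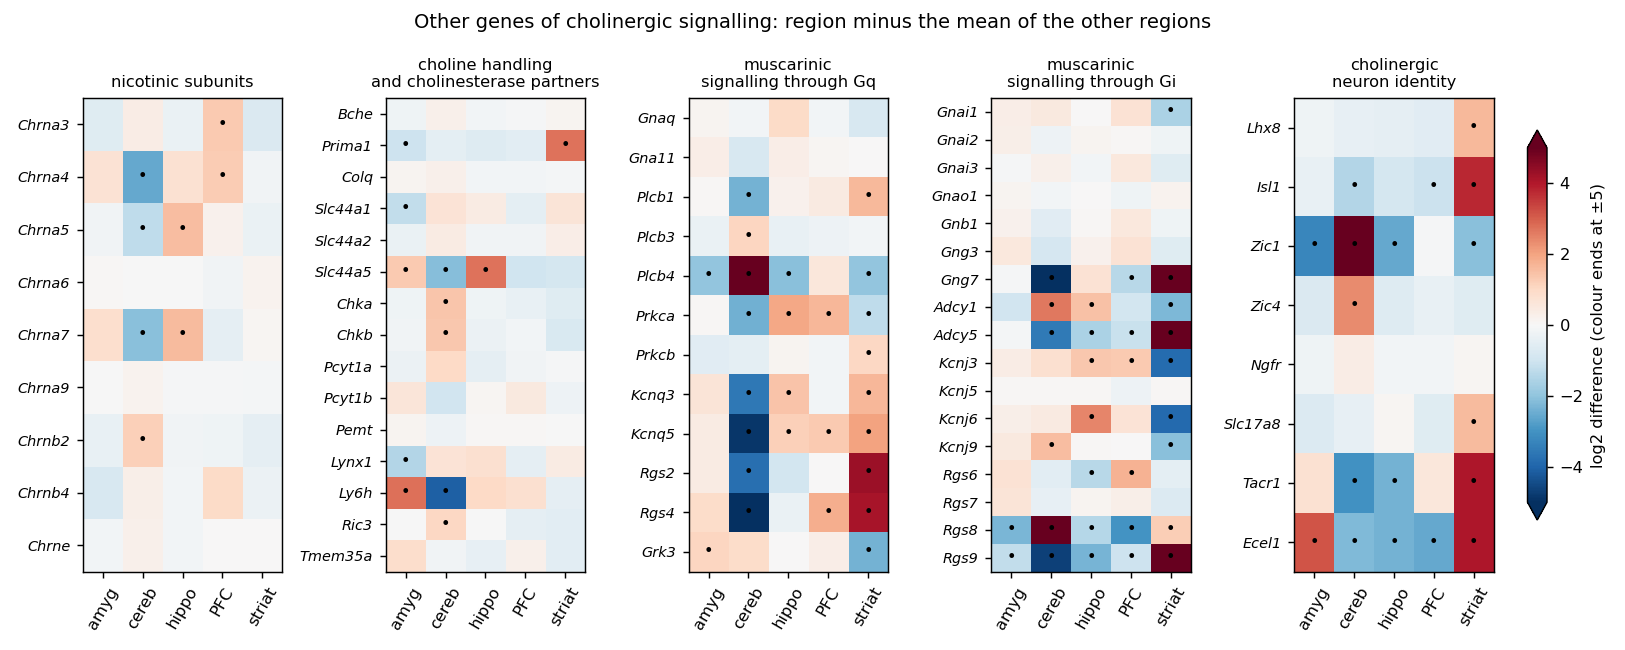
Heat map of the tested genes of the 5 lists (rows) by region (columns), coloured by the difference of the region from the mean of the other 4 regions in log2 units, with colours ending at 5 units either way and a dot for each call. Rgs9 and Gng7 stand out in striatum at 9.25 and 6.36, and Zic1 in cerebellum at 7.98.

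For each of the 9 genes the 3 tested genes with the most similar pattern were found by Pearson r, first over the 10 group means and then over the deviations of the 40 arrays from their group means. Over group means r was 0.925 to 0.999, most of which is the shared order of regions. The nearest gene was Chn1 for Chrm1, Gm7056 for Chrm2, Ociad2 for Chrm3, Ngef for Chrm4, Ocrl for Chrm5, Itga5 for Chat, Ptpn7 for Slc5a7, Thsd7a for Slc18a3 and Invs for Ache. Spock3 was among the nearest 3 of Chat, Slc5a7 and Slc18a3 alike.

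Over deviations, which take region and genotype off, r was 0.65 to 0.86. Chrm1 was nearest to Camk2a (0.86) and Ddn (0.81), both genes of excitatory neurons and their dendrites. Chrm3 was nearest to Dkkl1 (0.81) and Chrm5 to Zfp423 (0.81), Vgll3 (0.81) and Dlk1 (0.78), the last also 1 of the amygdala markers. The SD of Chrm5 was 2.05 in Ala amygdala and at most 0.65 in any other group. That of Chrm1 was 1.71 in Ala cerebellum and at most 0.65 in any other group. The r values of Chrm1 and Chrm5 thus lean on those arrays, which include Ala cerebellum replicate 12 and Ala amygdala replicate 1. Chat was nearest to Slc18a3 among the 9 genes (0.78), a value that leans on the Ala striatum arrays, and outside the 9 genes to Plcxd1 (0.73). The nearest 3 of Slc18a3 outside the 9 genes held Adgrl1 (0.68) and Lhx8 (0.67), a transcription factor gene of cholinergic interneurons. These values describe arrays that share dissection and scale, and carry no test.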

How the data were processed

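Total RNA of 5 brain regions was extracted with Trizol, biotin-labelled and hybridised to Affymetrix arrays, 40 arrays in all. The deposited table holds the authors' log2 signals, and RMA is the tool that the submitters' processing notes name; its version is not given in the sources used. It has 28846 rows, of which 6640 are controls and 19572 carry 1 gene symbol. Genes are represented by the row of highest mean, 19505 in all, and 14978 exceeded a log2 signal of 4.60, the 30th percentile, on at least 4 arrays and were tested. No further normalization was applied.

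Groups came from the labels. A model with 10 group means and 30 residual degrees of freedom was fitted in limma 3.58.1 (R 4.3.3) with an intensity trend, and p-values were adjusted by Benjamini-Hochberg over all genes tested. Regions were compared with the mean of the other 4 (called at adjusted p under 0.05 and a difference of at least 1) and in pairs, and Ala with Thr within regions, on average, and by an F-test of whether the difference varied (all at adjusted p under 0.05). The code was tested on simulated data. Marker scores are the mean of a list's tested markers on an array minus the region's mean.

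The 9 genes are all named. Of the other lists, the named genes are among the 2 largest differences per region among calls, or, between genotypes, where none was called, among the 2 of smallest p. The genes and lists were chosen with earlier results of these data known. Promoter windows and gene positions are RefSeq's for GRCm38.p6. Alternatives were other scalings, filters, rows per gene, variance settings, array weights, single-region fits, arrays left out singly or in sets, and no minimum difference. Replicate numbers run from 1 to 40 without repeats across groups, so no pairing was used.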

Additional observations from a re-analysis of the deposited data

Results flagged for a closer look

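In 90 groups of 4 arrays (9 genes, 10 groups), 3 single readings lay farther from the other 3 than Dixon's 95% critical value allows. Chance alone gives about 1 in 20, so this count is no more than chance gives. Chat in Thr hippocampus replicate 23 read 3.04 against 2.43 to 2.50, and Slc18a3 in the same array read 3.49 against 2.73 to 2.83. That array's scores for medial habenula and thalamus markers were 2.53 and 1.86 above the mean of the hippocampus arrays, and their part in these readings was not tested. Chat in Thr prefrontal cortex replicate 32 read 2.34 against 2.43 to 2.44. All 3 readings are near background.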

How the results depend on the processing

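The analysis was repeated with each of 40 arrays left out and under 14 other settings. Of the region and genotype differences of the 9 genes, none changed sign while called. The count of genotype calls within regions was 0 to 1 with single arrays left out, the 1 being Chat without Ala striatum replicate 34. With no minimum difference, the calls rose from 2 to 6 in amygdala, from 5 to 8 in cerebellum, from 3 to 8 in hippocampus, from 6 to 9 in prefrontal cortex and from 5 to 7 in striatum, while the share of all genes called rose to 32.6%, 57.5%, 27.9%, 25.8% and 44.0%. Each raised count holds Chat and Slc18a3, which passed the filter through striatum arrays alone, and cannot be read against its share. A set of 4 arrays (Ala amygdala 1, Ala cerebellum 12, Thr hippocampus 23 and Ala prefrontal cortex 27) was left out as an alternative chosen after seeing the data, giving 3, 5, 4, 6 and 5 calls in amygdala, cerebellum, hippocampus, prefrontal cortex and striatum. No paired analysis was possible because the groups share no replicate numbers. Signals near background limit Chrm5, Slc18a3 and Chat most.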
